A study of Mus musculus with 24 samples.

Results

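The 10 imprinted genes Zim1, Peg3, Mest, Igf2, H19, Dlk1, Plagl1, Sgce, Ndn and Cdkn1c were followed in the inguinal fat of mice that lack Bmal1 in adipocytes. They were chosen by name around Zim1, which had stood out because its values split widely between arrays. Each gene was read from a probe set that the platform annotation pairs with exactly 1 symbol. This gave a value for 9 of the 10 genes, among 19938 genes in all, and H19 was not analysed here. Each of the 9 had a single such probe set.

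The knockout mice carried the aP2-Cre transgene and 2 floxed Bmal1 alleles (aP2-Cre+/- Bmal1fx/fx), and the control mice carried the floxed alleles without Cre (Bmal1fx/fx). Both genotypes had been backcrossed to C57BL/6J for 6 or more generations and ate chow. Fat was collected at the circadian times (CT) 0, 6, 12 and 18 h, where CT0 begins the subjective day. Constant darkness began 36 h before the first collection, and all mice went without food for 24 h. Each of the 8 groups held 3 biological replicates, 1 array each, so 24 arrays were analysed. The aP2 promoter drives Cre in fat cells, and which cells of the pad recombined was not measured. An effect of Cre itself cannot be told apart from that of the deletion, since no control carried Cre.

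Genomic imprinting is the expression of a gene from the copy of only 1 parent, set by methylation laid down in the germ line. Many imprinted genes act on growth, the placenta and energy stores, and in fat several are known for effects on fat cell number and size. Zim1 and Peg3 lie beside each other in one imprinted domain, where Zim1 is expressed from the maternal copy and Peg3 from the paternal copy. The arrays measure total RNA and do not separate the parental copies.

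All levels are log2 expression values, on which a difference of 1 is a doubling. Bmal1, listed as Arntl, was read as a check on the labels. At CT0 it read 7.30 to 7.51 in knockout fat, against 7.97 on all 3 arrays of control fat. At CT6 it read 6.88 to 7.08 in knockout fat and 6.54 to 6.82 in control fat, and at CT12 and CT18 the genotypes overlapped. Knockout fat thus lay fully below control fat at CT0 only and fully above it at CT6, so Arntl bears out the labels at CT0 only. Whether the Arntl probes lie in the deleted part was not determined. Earlier results on these data singled out 4 arrays that read like the other genotype, namely the first replicate of either genotype at CT12 and the third replicate of either genotype at CT18. Ces1d, a lipid-cleaving carboxylesterase that separated the genotypes fully at CT0 and CT6, read 11.06 and 10.75 on these knockout arrays and 10.32 and 10.51 on these control arrays. Its other knockout arrays read 9.61 to 10.33 and its other control arrays 10.64 to 11.09. Knockout and control below mean the arrays as labelled. Some results are also given without these 4, and a value not said to leave arrays out includes them. The adipocyte genes Adipoq, Fabp4 and Plin1 lay far above the array median of 6.46 to 6.56 on all 24 arrays, at 11.77 to 12.13, 12.38 to 12.66 and 8.66 to 9.95. In a whole fat pad, fewer cells of a type and less RNA per cell cannot be told apart.

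Promoter sequences are shown for Zim1, Peg3 and Plagl1, because Zim1 and Peg3 varied together more closely than any other pair involving Zim1, and because Plagl1 encodes a transcription factor with a known motif. They come from RefSeq (mouse assembly GRCm38.p6) and span 250 bases before to 50 bases after a gene start. Zim1 lies at chr7:6696383-6696682 on the minus strand, Peg3 at chr7:6730370-6730669 on the minus strand and Plagl1 at chr10:13090582-13090881 on the plus strand. The search was for CACGTG, the E-box bound by CLOCK and BMAL1, and for GGGGCCCC, a motif bound by PLAGL1, and matches are in capitals. Both motifs read the same on either strand and do not overlap each other.
Zim1: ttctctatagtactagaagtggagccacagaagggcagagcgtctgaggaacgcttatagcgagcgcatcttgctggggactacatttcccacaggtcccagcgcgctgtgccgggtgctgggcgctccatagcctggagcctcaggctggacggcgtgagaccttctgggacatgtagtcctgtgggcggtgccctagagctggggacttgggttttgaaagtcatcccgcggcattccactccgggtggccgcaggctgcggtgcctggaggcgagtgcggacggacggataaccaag
Peg3: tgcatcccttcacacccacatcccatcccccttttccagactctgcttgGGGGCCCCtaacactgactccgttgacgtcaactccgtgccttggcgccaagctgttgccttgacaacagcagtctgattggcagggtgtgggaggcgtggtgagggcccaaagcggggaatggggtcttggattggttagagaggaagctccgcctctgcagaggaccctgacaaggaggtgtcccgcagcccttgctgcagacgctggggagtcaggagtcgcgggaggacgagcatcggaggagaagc
Plagl1: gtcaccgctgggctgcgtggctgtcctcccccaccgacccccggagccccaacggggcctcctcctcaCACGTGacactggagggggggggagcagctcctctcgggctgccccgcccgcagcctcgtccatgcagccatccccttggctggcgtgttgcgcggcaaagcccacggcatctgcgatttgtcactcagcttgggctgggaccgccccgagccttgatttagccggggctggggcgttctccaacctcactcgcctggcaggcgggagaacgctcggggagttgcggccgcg
The Peg3 promoter held GGGGCCCC starting 201 bases before the gene start, and the Plagl1 promoter held CACGTG starting 182 bases before it. Zim1 held neither motif in this window. Of 12 promoters listed for 7 of the members, 1 held each motif. Of all 32851 promoters of this length, 7.15% held CACGTG and 1.08% held GGGGCCCC. A match is a description of the letters and not evidence of binding.

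Zim1, which encodes a zinc finger protein, read higher in knockout fat at CT0 and CT6, and its genotypes overlapped at CT12 and CT18. At CT0 it read 9.54, 8.88 and 10.13 log2 in the 3 knockout arrays, against 7.51, 6.60 and 7.40 in the 3 control arrays. At CT6 it read 9.99, 9.86 and 10.39 in knockout fat and 8.40, 7.28 and 8.12 in control fat. Every knockout array lay above every control array at both times. At CT12 it read 8.33, 10.27 and 9.41 in knockout fat and 9.21, 7.16 and 6.90 in control fat. At CT18 it read 9.05, 9.19 and 5.24 in knockout fat and 6.83, 6.08 and 8.80 in control fat. At CT12 the first replicate of knockout lay below the first of control, and at CT18 the third replicate of knockout lay below the third of control. The value of 5.24 was the lowest of all 24 arrays.

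Zim1 averaged 9.52 ± 0.62 in knockout and 7.17 ± 0.50 in control fat at CT0, and 10.08 ± 0.28 and 7.93 ± 0.58 at CT6 (SD, n = 3 each). At CT12 the means were 9.34 ± 0.97 in knockout and 7.76 ± 1.27 in control fat, and at CT18 they were 7.83 ± 2.24 and 7.24 ± 1.41. The difference, knockout minus control, was 2.35, 2.15, 1.58 and 0.59 log2 at CT0, CT6, CT12 and CT18 (SE 0.82 each). Its mean over the 4 times was 1.67 ± 0.41 (SE), a 3.17-fold higher level in knockout fat. Of 12 knockout arrays, 11 lay above the control mean of their time. No p is given for these differences, since Zim1 was chosen for its values. Without the 4 arrays the difference was 2.81 at CT12, 2.67 at CT18 and 2.49 as a mean. Leaving out knockout replicate 3 alone raised the CT18 difference to 1.88, while leaving out knockout replicate 2 alone turned it to -0.09 and knockout replicate 1 alone to -0.02.

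**Figure D1:**
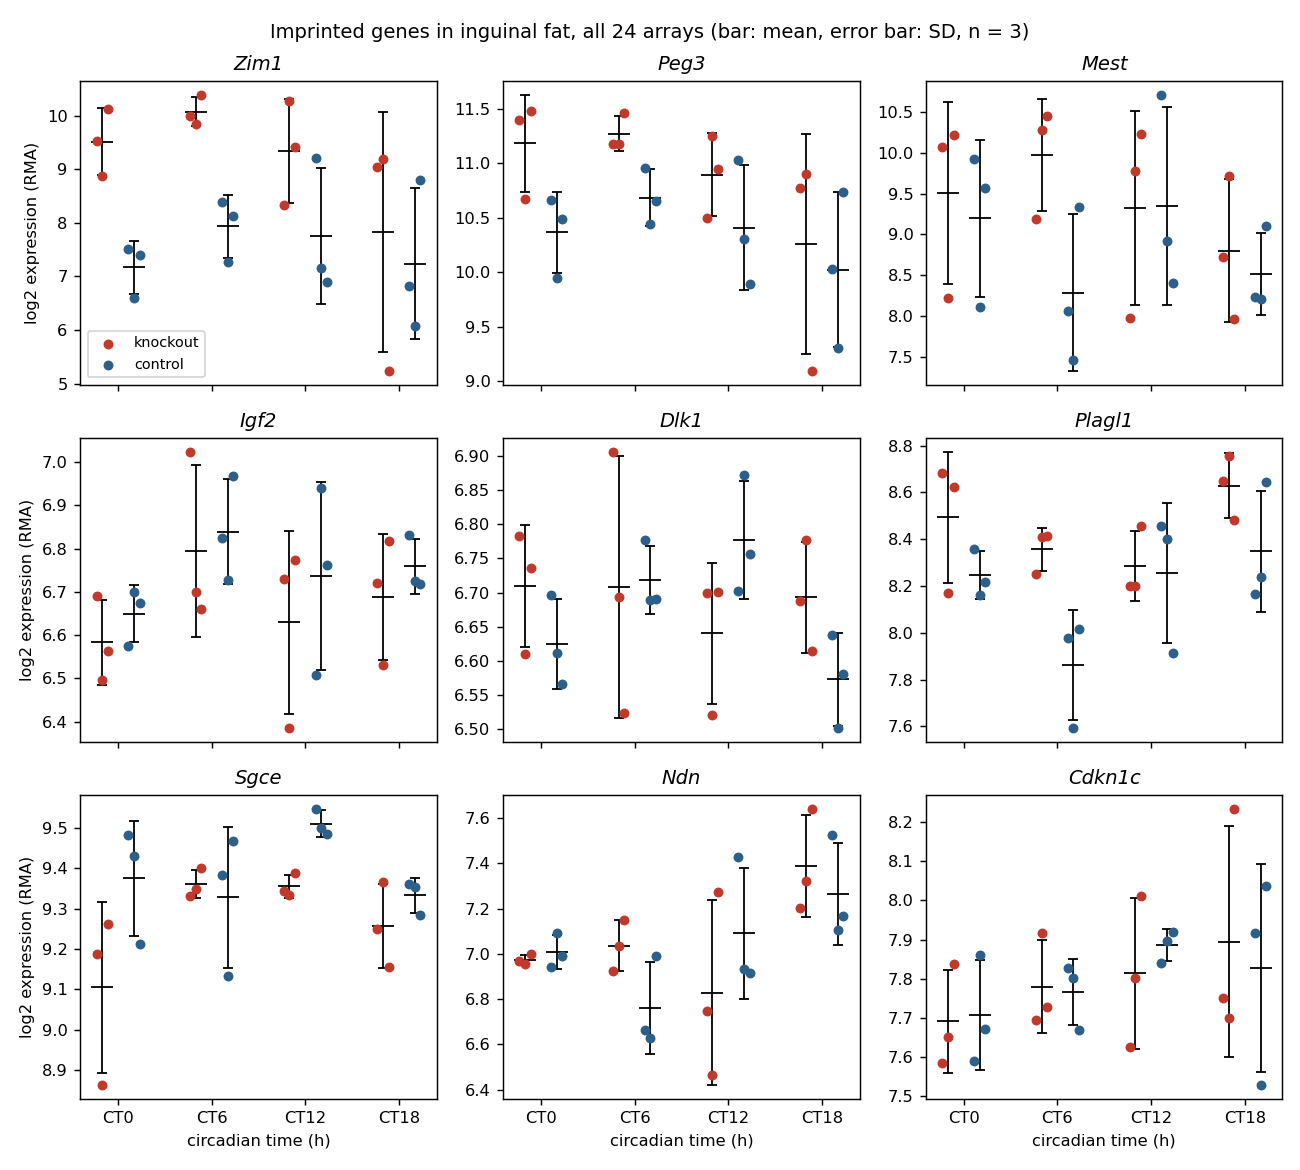
Log2 expression of the 9 measured imprinted genes on each of 24 arrays, by circadian time in hours, knockout in red to the left of control in blue, with the group mean (bar) and SD (error bar, n = 3). Zim1 and Peg3 separate the genotypes at CT0 and CT6, whereas Igf2, Dlk1 and Cdkn1c overlap at those times.

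Peg3, a paternally expressed zinc finger gene next to Zim1, had a pattern over the arrays like that of Zim1, with a smaller spread. At CT0 it read 11.40, 10.67 and 11.48 log2 in knockout fat, against 10.67, 9.95 and 10.49 in control fat. At CT6 it read 11.18, 11.18 and 11.46 in knockout fat and 10.96, 10.44 and 10.66 in control fat. The genotypes did not overlap at either time, although the lowest knockout and the highest control array at CT0 both read 10.67 after rounding. At CT12 it read 10.50, 11.25 and 10.95 in knockout fat and 11.03, 10.31 and 9.89 in control fat. At CT18 it read 10.78, 10.90 and 9.10 in knockout fat and 10.03, 9.31 and 10.74 in control fat. The same arrays as for Zim1 crossed over at CT12 and CT18, and 11 of 12 knockout arrays lay above the control mean of their time.

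The mean difference of Peg3 was 0.53 ± 0.20 log2 (SE), a 1.45-fold higher level in knockout fat, and it did not pass the test (limma adjusted p = 0.662). This test fits a linear model to every gene, adjusts p over all genes by Benjamini-Hochberg and calls a gene at an adjusted p under 0.05. By time the difference was 0.82, 0.59, 0.49 and 0.23 (SE 0.40 each). Leaving out the 4 arrays gave a mean difference of 0.89 with a limma adjusted p of 0.00215. Since genes that differ by genotype had singled those arrays out, this p overstates the evidence. The same limit holds for every genotype test and count without the 4 arrays below. Of single arrays, leaving out knockout replicate 1 or 2 or control replicate 2 at CT18 turned the CT18 difference negative, to -0.12 at the lowest.

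Plagl1, a paternally expressed zinc finger transcription factor also known as Zac1, differed by less. At CT6 it read 8.25, 8.41 and 8.41 log2 in knockout fat, against 7.98, 7.59 and 8.02 in control fat, and the genotypes did not overlap. At CT0 it read 8.68, 8.17 and 8.62 in knockout fat and 8.36, 8.16 and 8.22 in control fat. At CT12 it read 8.20, 8.20 and 8.46 in knockout fat and 8.46, 8.40 and 7.91 in control fat. The genotypes overlapped at both times. At CT18 it read 8.65, 8.76 and 8.48 in knockout fat and 8.16, 8.24 and 8.64 in control fat, where 1 control array lay within the knockout range. The mean difference was 0.26 ± 0.08 (SE, limma adjusted p = 0.441), and at CT6 it was 0.49 ± 0.16 (limma adjusted p = 1.0). The mean difference was 0.35 without the 4 arrays (limma adjusted p = 0.0565, with the same limit as for Peg3).

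Mest, a paternally expressed member of the alpha/beta hydrolase family whose RNA is known to track the expansion of fat cells in mice, varied widely within every group. At CT0 it read 10.07, 8.23 and 10.22 log2 in knockout fat, against 9.92, 8.11 and 9.57 in control fat, so that replicate 2 of each genotype was low. At CT6 it read 9.19, 10.28 and 10.45 in knockout fat and 8.06, 7.46 and 9.34 in control fat, and 1 control array lay above the lowest knockout array. At CT12 it read 7.98, 9.78 and 10.22 in knockout fat and 10.71, 8.92 and 8.40 in control fat. At CT18 it read 8.72, 9.72 and 7.97 in knockout fat and 8.23, 8.21 and 9.10 in control fat. No time separated the genotypes fully. The mean difference was 0.57 ± 0.34 (SE, limma adjusted p = 0.903, 95% interval -0.15 to 1.28), and the difference at CT6 was 1.69 ± 0.69 (limma adjusted p = 1.0). Without the 4 arrays the mean difference was 1.08 (limma adjusted p = 0.169), and at CT12 it was 1.34 in place of -0.02.

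The other members moved little with genotype. Igf2, the paternally expressed growth factor, read 6.39 to 7.02 log2 in knockout and 6.51 to 6.97 in control fat, with a mean difference of -0.07 ± 0.06 (SE, 95% interval -0.20 to 0.05). Dlk1, the paternally expressed preadipocyte factor that restrains fat cell differentiation, read 6.52 to 6.91 in knockout and 6.50 to 6.87 in control fat. Its mean difference was 0.01 ± 0.04, with an interval of -0.08 to 0.11. Over all arrays Igf2 and Dlk1 averaged 6.71 and 6.68, close to the array median of 6.46 to 6.56, so a small change could be missed. The genotypes of both genes overlapped at CT0 and CT6, and at CT12 Dlk1 read 6.70, 6.52 and 6.70 in knockout fat, just below 6.70, 6.87 and 6.76 in control fat.

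Sgce, which encodes epsilon-sarcoglycan of the dystrophin-associated complex, was the member with the most negative mean difference, at -0.12 ± 0.05 (SE, limma adjusted p = 0.741). At CT12 it read 9.34, 9.33 and 9.39 in knockout fat and 9.55, 9.50 and 9.48 in control fat, and the genotypes did not overlap. At CT0 it read 9.19, 8.86 and 9.26 in knockout fat and 9.48, 9.43 and 9.21 in control fat, a difference of -0.27 ± 0.10 (limma adjusted p = 0.794). Ndn, which encodes the growth suppressor necdin, read 6.47 to 7.64 in knockout and 6.63 to 7.52 in control fat, with a mean difference of 0.03 ± 0.08 (interval -0.15 to 0.20). Cdkn1c, the maternally expressed inhibitor of cyclin-dependent kinases p57, read 7.58 to 8.23 in knockout and 7.53 to 8.04 in control fat, and its difference had an interval of -0.14 to 0.14.

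Counted together, 0 of the 8 members tested passed limma for the mean genotype difference, where 0.0201% of all 19938 genes passed, and 3 members (Peg3, Plagl1 and Sgce) had an unadjusted p under 0.05, as did 6.07% of all genes. For the genotype difference at CT0, CT6, CT12 and CT18, 0 members passed where 0.0%, 0.0%, 0.0% and 0.00502% of all genes did. The unadjusted p was under 0.05 for 1 member at CT0 (Sgce) and for 2 at CT6 (Mest and Plagl1), against 5.55% and 3.77% of all genes. It was under 0.05 for 0 members at CT12 and CT18, against 2.49% and 6.05% of all genes. Of the 8 members other than Zim1, knockout lay fully above control for 1 at CT0 (Peg3) and 2 at CT6 (Peg3 and Plagl1), against 6.28% and 5.01% of all genes. Zim1, chosen for its values, also lay fully above at both times. Knockout lay fully below control for 0 members at either time, against 4.47% and 6.27% of all genes. At CT12 it lay fully below for 2 of the 8 (Dlk1 and Sgce), against 5.12% of all genes, and fully above for 0, against 2.97%. At CT18 the genotypes overlapped for all 9, where 4.33% of all genes lay fully above and 4.25% fully below. For the interaction of genotype and time 0 members passed, as did 0.0% of all genes, and 0 members had an unadjusted p under 0.05, against 2.98%.

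Beyond genotype, Mest and Peg3 were among the most variable genes between replicates of one group. The residual SD of Mest was 0.96 log2, the rank 9 of all 19938 genes, and that of Peg3 0.55 (rank 104), where the median gene had 0.13. Zim1 had 1.15 (rank 2), but it was chosen for its split between arrays, so its rank describes that choice. Over all 24 arrays Zim1 spanned 35.6-fold, Mest 9.47-fold and Peg3 5.21-fold. The others were nearer to the middle, with 0.23 for Ndn, 0.21 for Plagl1, 0.18 for Cdkn1c, 0.15 for Igf2, 0.12 for Sgce and 0.10 for Dlk1. Without the 4 arrays the residual SD was 0.81 for Mest (rank 33), 0.32 for Peg3 (rank 624) and 0.48 for Zim1 (rank 196). Zim1 and Peg3 read reversed on these same arrays, so a smaller spread and a larger genotype difference without them follow in part from which arrays were left out.

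Whether members varied together was measured on each array's deviation from its group mean, which subtracts the mean of the labelled genotype and time. On the 4 arrays that read like the other genotype, the deviation still holds the genotype difference. Through the group mean, the deviations of the other arrays in the same groups hold part of it too. Over 24 arrays and 36 pairs of members, 6 pairs passed a two-sided test of 100000 permutations within groups, adjusted over the pairs, and all 6 were positive. These 6 are all pairs among Zim1, Peg3, Mest and Plagl1. How many pairs among all genes would pass was not counted, so the 6 are not shown to be particular to the members. By deviations, 48 of 19937 other genes had an r above 0.8 with Zim1. Zim1 was chosen for its split between arrays, so the p-values of its pairs describe and add no independent support. For Zim1 and Peg3 Pearson's r was 0.97 (permutation p = 1e-05, the smallest these permutations can give, adjusted p = 0.00036) and Spearman's rho 0.97 (permutation p = 1e-05, adjusted p = 0.00036). It was 0.95 without the 2 arrays farthest from the median, 0.98 within knockout and 0.96 within control arrays, and 0.91 without the 4 arrays. Replicates that were high for one gene were therefore high for the other in both genotypes.

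**Figure D2:**
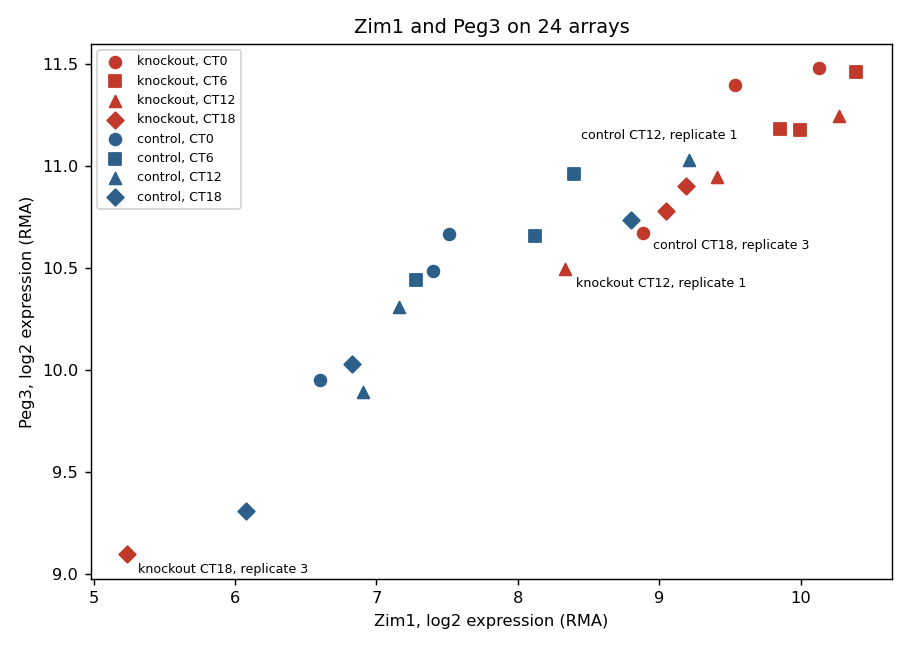
Zim1 (x axis) and Peg3 (y axis), log2 expression on each of 24 arrays, with knockout in red and control in blue and a symbol for each circadian time. The points fall along 1 line (raw r = 0.95), and the 4 named arrays lie on it, with knockout CT18 replicate 3 at its low end.

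For Mest and Plagl1 r was 0.78 (permutation p = 6e-05, adjusted p = 0.00108) and rho 0.78 (permutation p = 6e-05, adjusted p = 0.00108), with r of 0.77 without the 2 farthest arrays and 0.79 without the 4 arrays. For Zim1 and Mest r was 0.71 and rho 0.78 (permutation p = 0.00027 and 0.0003, adjusted p = 0.00279 and 0.00288), and for Peg3 and Mest 0.73 and 0.78 (0.00031 and 0.00032, adjusted 0.00279 and 0.00288). Without the 2 farthest arrays these r were 0.73 and 0.78. For Peg3 and Plagl1 r was 0.69 and rho 0.67 (permutation p = 0.00127 and 0.00457, adjusted p = 0.00914 and 0.0329), and for Zim1 and Plagl1 0.63 and 0.66 (0.00377 and 0.00708, adjusted 0.0226 and 0.0425). Without the 2 farthest arrays these r were 0.73 and 0.59.

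The permutations exchange arrays within each group separately, as if knockout and control arrays were independent. At CT0, arrays of the same replicate number shared part of their deviations (r of 0.19 to 0.37), so the permutation p-values may be too small. Which pairs passed also rested in part on single arrays. Without the 4 arrays only Zim1 with Peg3 (adjusted p = 0.00324) and Mest with Plagl1 (adjusted p = 0.00702) passed the permutation test. Leaving out 1 array at a time, 4 pairs passed in all 24 fits. Zim1 with Plagl1 failed without replicate 2 of knockout at CT0, replicate 3 of knockout or control at CT18, or replicate 2 of control at CT6, with an adjusted p of up to 0.0847. Peg3 with Plagl1 failed without replicate 2 of knockout at CT0 (adjusted p = 0.0518). With all 24 arrays, Igf2, Dlk1, Sgce, Ndn and Cdkn1c entered no pair that passed, with r of -0.47 (Zim1 and Igf2) to 0.61 (Plagl1 and Sgce). With 1 array left out, 4 to 8 pairs passed, and 3 further pairs were among them. Plagl1 with Sgce passed in 3 of the 24 fits, Mest with Sgce in 2 and Igf2 with Dlk1 in 1, while Ndn and Cdkn1c entered none.

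**Figure D3:**
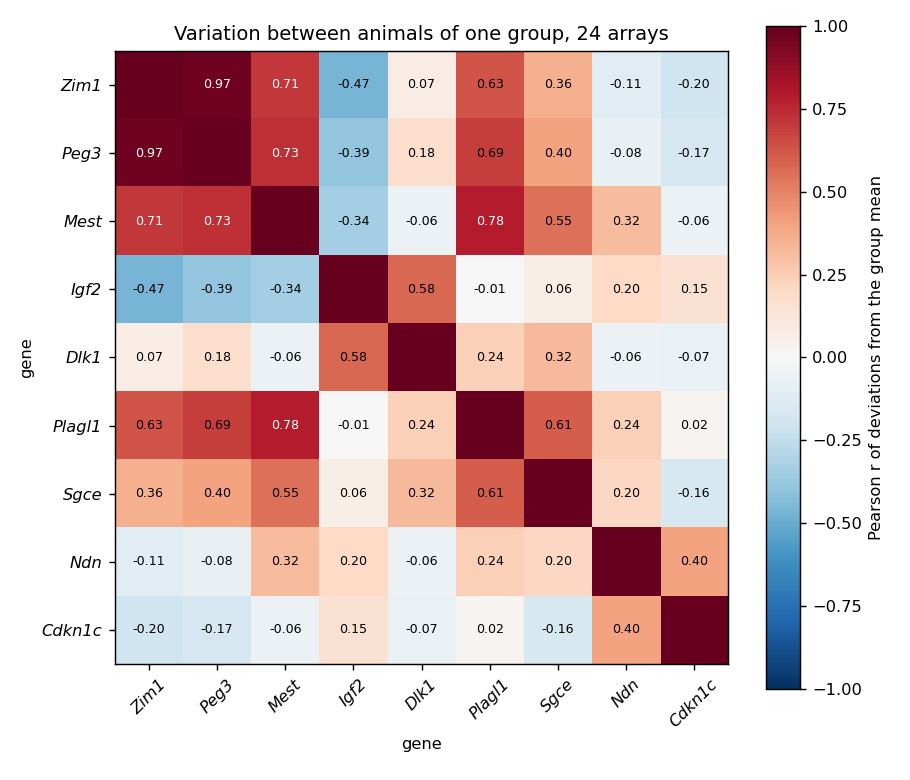
Pearson correlation between the 9 measured members of their deviations from the group mean over 24 arrays, red for positive and blue for negative. The pairs among Zim1, Peg3, Mest and Plagl1 have an r of 0.63 to 0.97, and Igf2 is negative with Zim1 (-0.47).

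Some cell type markers moved along with these deviations. The mean of 9 measured of 10 adipocyte markers ran between 10.43 and 11.10 in knockout and 10.79 and 11.21 in control arrays, lowest in knockout CT0 replicate 2, and its deviations had an r of 0.70 with Plagl1, 0.63 with Peg3, 0.61 with Mest, 0.60 with Sgce and 0.49 with Zim1. The mean of the 6 epithelial markers ran between 6.13 and 7.40 in knockout and 6.08 and 6.62 in control arrays. It was highest in that same knockout array, and its r was -0.75 with Sgce, -0.69 with Plagl1, -0.58 with Mest, -0.35 with Peg3 and -0.27 with Zim1. The mean of 11 measured of 12 progenitor and fibroblast markers ran between 8.14 and 8.71 in knockout and 8.41 and 8.62 in control arrays, lowest in knockout CT18 replicate 3, with an r of 0.59 with Sgce and 0.42 with Zim1. Its r of 0.46 with Dlk1 is in part built in, since Dlk1 is itself among these markers. The mean of 6 macrophage markers ran between 7.38 and 8.82 in knockout and 8.02 and 8.73 in control arrays, again lowest in knockout CT0 replicate 2, and its r was 0.58 with Mest, 0.57 with Sgce, 0.40 with Peg3 and 0.35 with Zim1. The mean of 6 endothelial markers ran between 7.98 and 8.63 in knockout and 8.25 and 8.67 in control arrays, lowest in the same knockout array, with an r of 0.51 with Mest and 0.46 with Plagl1. All 6 endothelial markers had a negative mean genotype difference (median -0.17 log2), and 0 passed by limma while 5 had an unadjusted p under 0.05, against 6.07% of all genes. The mean of 4 mesothelial markers ran between 7.57 and 8.46 in knockout and 7.61 and 8.15 in control arrays, with an r of 0.66 with Dlk1 and -0.51 with Cdkn1c. Knockout CT0 replicate 2 also read lowest of its group for every measured member but Cdkn1c, among them Zim1 (8.88), Peg3 (10.67), Sgce (8.86), Plagl1 (8.17) and Mest (8.23). When arrays were weighted by quality, it had the lowest weight of all arrays (0.253). The r with marker means are given with this array included, and how far they rest on it was not tested. The part of these cell types in the members' variation was not tested either.

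The gene most like Zim1 among 19937 others was Peg3. It ranked 1 by Pearson's r over the 24 arrays (0.95), by deviations from the group mean (0.97), by Spearman's rho (0.97) and without the 4 arrays (0.94). Next over the 24 arrays came Ppp2r1b, a scaffold subunit of protein phosphatase 2A (0.88), the thiol reductase gene Glrx (0.86), Hmgcs1 of cholesterol synthesis (0.86) and the adenylyl cyclase gene Adcy5 (0.86). The most negative were Cdh19 (-0.83), Gsta3 (-0.82), Kcnj15 (-0.79), Eci3 (-0.77) and Homer2 (-0.76), which read higher where Zim1 read lower. These r also hold differences between the genotypes. The mean genotype difference ran from 0.26 (Ppp2r1b) to 0.67 log2 (Hmgcs1) for the positive genes after Peg3. For the negative genes it ran from -0.14 (Homer2) to -0.79 log2 (Kcnj15). By deviations from the group mean the genes after Peg3 were Mprip (0.92), Atp6v1b2 (0.91), Parva (0.89) and Gsr (0.89). The most negative were Ak4 (-0.94), Lancl3 (-0.92), Treml2 (-0.85), Iqcb1 (-0.84) and Tdpoz2 (-0.84). Only Peg3 stood in both sets of 10, so that which genes come next depends on the measure. By deviations the other positive genes of the first set still had an r of 0.81 (Glrx) to 0.88 (Ppp2r1b). Its negative genes had -0.56 (Homer2) to -0.80 (Cdh19). By Spearman's rho 6 of the first 10 were named again, and without the 4 arrays 5 were.

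Among the measured genes on either side of Zim1 on chromosome 7, the highest r with Zim1 were those of the Peg3 domain. The olfactory receptor genes Olfr1347, Olfr1348, Olfr1349 and Olfr1350 on one side had an r with Zim1 over 24 arrays of -0.03, 0.24, -0.09 and 0.29. On the other side followed Peg3 (0.95) and Usp29 (0.53), a paternally expressed gene of the Peg3 domain that encodes a ubiquitin protease. Beyond them came Aurkc (0.05), Zfp954 (-0.32) and Zfp773 (-0.11). Usp29 differed by 0.20 ± 0.05 (SE, limma adjusted p = 0.214) and did not pass. Its mean level over all arrays was 4.55.

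For the other members, the 2 genes most like each by deviations from the group mean are given as a description. For Peg3 they were Zim1 (0.97) and Mprip (0.94), for Mest the polarity gene Mpp7 (0.96) and the membrane-binding gene Anxa2 (0.95), and for Plagl1 the natriuretic peptide clearance receptor Npr3 (0.90) and the inositol transporter Slc5a3 (0.88). For Sgce they were Rnf13 (0.86) and Mpdz (0.85), and for Ndn they were Bcl2l10 (0.89) and Fam162a (0.88). For Igf2 they were Dcaf12l1 (0.80) and Enam (0.78), for Dlk1 Gapdhs (0.79) and Htr6 (0.77), and for Cdkn1c Meig1 (0.86) and Olfr251 (0.83).

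Mest was set beside Sfrp5, Bmp3, Npr3, Nkd1, Cav1 and Lep, genes known from work on the expansion of fat pads in mice. Its deviations had an r of 0.83 with Sfrp5, a secreted WNT antagonist, 0.79 with Npr3, 0.67 with the leptin gene Lep, 0.63 with the caveolin gene Cav1 and 0.45 with the growth factor gene Bmp3. With Nkd1, an inhibitor of WNT signalling, r was 0.02. At CT0 Sfrp5 read 7.51, 5.87 and 6.65 log2 in knockout fat and 7.30, 5.88 and 7.21 in control fat, low in replicate 2 of each genotype as Mest was. For the mean genotype difference 0 of these 7 genes passed, 2 were positive (Mest among them) and 5 negative, with a median of -0.12. Sfrp5 differed by -0.21 ± 0.20 (SE, limma adjusted p = 0.967), where Mest had a positive value.

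**Figure D4:**
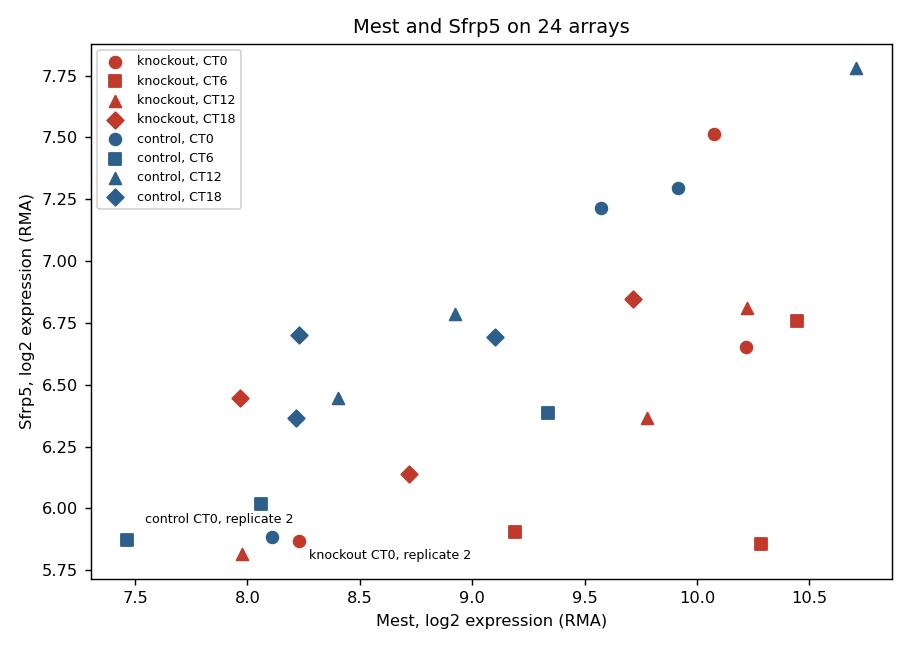
Mest (x axis) and Sfrp5 (y axis), log2 expression on each of 24 arrays, with knockout in red and control in blue and a symbol for each circadian time. Both genes are low in replicate 2 of each genotype at CT0 and high in control CT12 replicate 1, the array with the highest value of both.

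As means over both genotypes, Zim1 and Peg3 were highest at CT6 and lowest at CT18. Zim1 averaged 8.34, 9.01, 8.55 and 7.53 log2 over both genotypes at CT0, CT6, CT12 and CT18, and Peg3 10.78, 10.98, 10.65 and 10.14. In control fat alone Zim1 was lowest at CT0, at 7.17 against 7.24 at CT18. The CT18 knockout mean includes the array at 5.24, and without the 4 arrays the CT18 means were 7.79 for Zim1 and 10.26 for Peg3, still the lowest of the 4 times. Plagl1 ran the other way, with 8.37, 8.11, 8.27 and 8.49, and Ndn was highest at CT18, with 6.99, 6.90, 6.96 and 7.33. By limma 0 of the 8 members tested passed for time over both genotypes, where 0.883% of all genes did. The smallest limma adjusted p was that of Ndn (adjusted p = 0.163), followed by Plagl1 (adjusted p = 0.22) and Peg3 (adjusted p = 0.297). These 3 had an unadjusted p under 0.05, as did 16.1% of all genes. In knockout fat 0 members passed, as did 0.0702% of all genes, and 1 (Ndn) had an unadjusted p under 0.05 against 13.4%. In control fat 0 passed, as did 0.0602% of all genes, and 2 (Ndn and Plagl1) had one against 5.8%. With 4 times in a single cycle, a daily rhythm cannot be told apart from any other change over time.

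A wider set, of genes listed as imprinted or as part of an imprinted domain, was followed for comparison and is called imprinted genes here. Whether each is imprinted in fat was not measured. Of 71 listed genes 59 were measured, and 0 passed for the mean genotype difference. Leaving aside Zim1, which was chosen for its values, 8 of 58 had an unadjusted p under 0.05 (13.8%), against 6.07% of all genes, and 3 of these 8 are members. Of the 59, Zim1 included, 37 had a positive and 22 a negative difference, with a median of 0.02 log2. Over all genes 50.6% had a positive one and the median was 0.0008. Among the 50 that are not members, 31 were positive and 19 negative, and the smallest p belonged to Usp29, Pon3, a lactonase gene (-0.21 ± 0.08, limma adjusted p = 0.664), Peg12 (-0.09 ± 0.04, adjusted p = 0.725) and the deiodinase gene Dio3 (0.13 ± 0.06, adjusted p = 0.797). Zim1 had the largest difference of the 59 measured imprinted genes, which describes its choice, and Mest and Peg3 had the next. The members were chosen with earlier results known, so this order is a description.

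**Figure D5:**
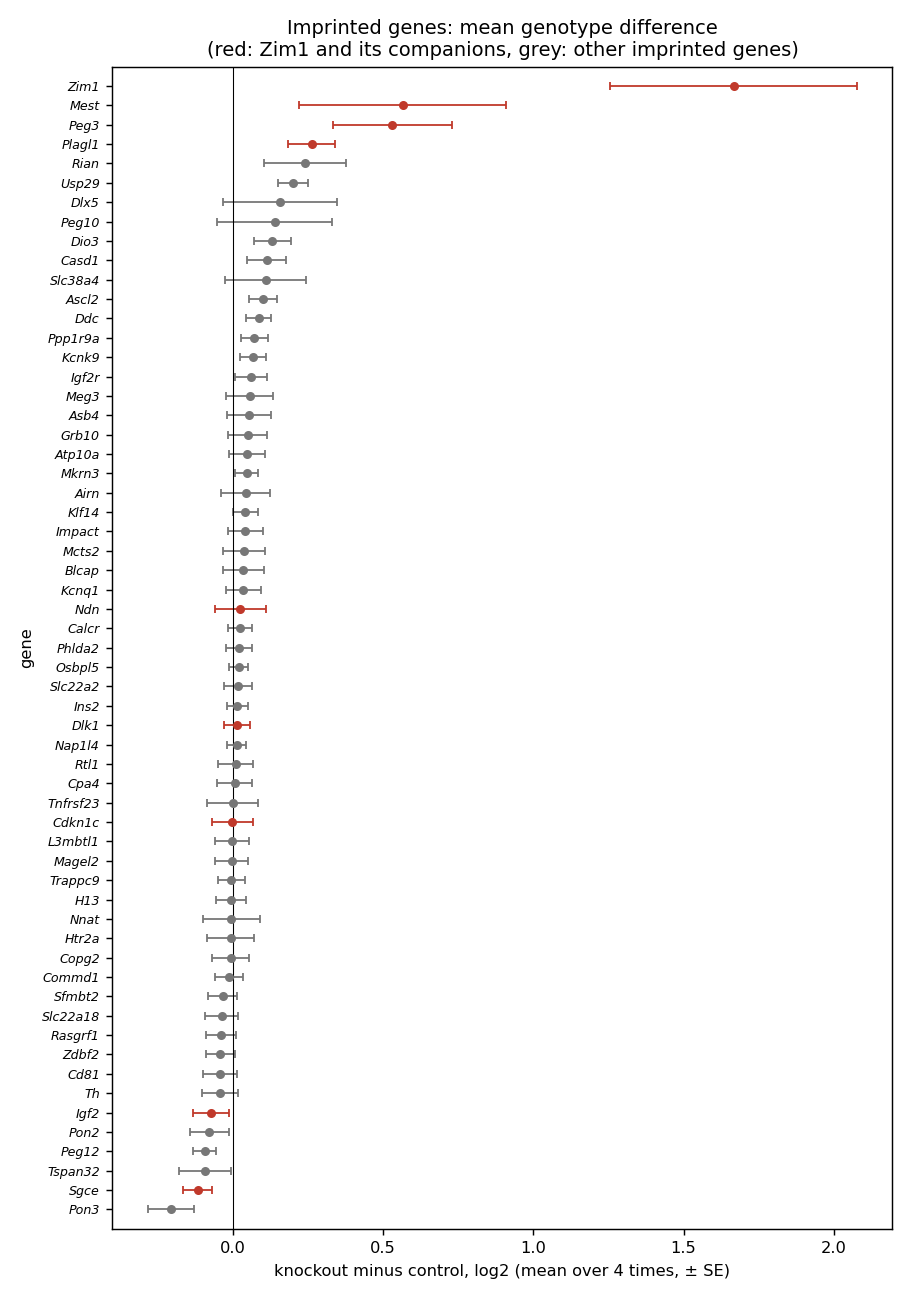
Knockout minus control difference in log2 expression, averaged over 4 circadian times, with its SE, for 59 imprinted genes ordered by size (9 members in red, 50 others in grey). Zim1 stands at 1.67, Mest, Peg3 and Plagl1 follow between 0.26 and 0.57, and Pon3 is lowest at -0.21.

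For circadian time over both genotypes 1 of the 59 passed, Peg10, a paternally expressed retrotransposon-derived gene next to Sgce (limma adjusted p = 0.0344). It averaged 9.76, 9.29, 9.22 and 8.28 log2 at CT0, CT6, CT12 and CT18. In knockout fat it averaged 10.11 ± 0.80, 9.46 ± 0.55, 8.94 ± 0.39 and 8.32 ± 0.62, and in control fat 9.41 ± 0.54, 9.13 ± 0.24, 9.50 ± 0.37 and 8.23 ± 0.54 (SD, n = 3 each). It was lowest at CT18 in both genotypes. The call rested on single arrays: it held in 12 of 24 fits with 1 array left out (adjusted p 0.00529 to 0.0972), and without the 4 arrays the adjusted p was 0.172. The fits without replicate 1 or 3 of either genotype at CT0 and at CT18, replicate 1 or 3 of control at CT6, replicate 1 of knockout at CT12 or replicate 2 of control at CT12 lost it. Among the 50 that are not members, Nap1l4 (adjusted p = 0.152), Slc22a2 (0.185) and Nnat (0.207) followed, with the member Ndn (0.163) between the first and the second, and none of these passed.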

How the data were processed

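RNA of inguinal fat from 24 mice was measured on Affymetrix mouse gene arrays. The labels' protocols give Trizol extraction, amplification of 50 ng and biotin labelling. The deposited table holds log2 expression that the authors made with RMA, per the submitters' processing notes, with the RMA version and scan dates not given. RMA normalizes between arrays and compresses small differences at low signal. Array medians were 6.46 to 6.56, and precision is limited by the number of arrays.

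Of 35556 probe sets, 21789 had 1 symbol in the platform annotation, 1621 several and 12146 none. Of several probe sets of a gene, the one with the highest mean over all arrays was used. limma 3.58.1 (R 4.3.3) fitted the 8 groups to 19938 genes, with 16 residual and 5.03 prior degrees of freedom, Benjamini-Hochberg adjustment over all genes and a threshold of 0.05. The error beside a log2 difference is its SE. Correlations used Python 3.11.15. They cover 36 pairs rather than the 45 planned, since H19 has no probe set with 1 symbol. The fit was tested on simulated data.

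The members and gene lists were chosen with earlier results of these data known, so p-values for members describe and do not add independent support. Genes are named as members, as measured genes of the Peg3 domain, as genes passing a test, as those with the smallest p of a list, or as the most and least like a member. Predicted genes and clones were not named. Ces1d, and the measured genes beyond the Peg3 domain, were chosen after their values were seen. The labels call the samples biological replicates, and p-values measure the spread between them. The alternatives tried were other normalizations, filters, array weights, a replicate block, and leaving out arrays.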

Additional observations from a re-analysis of the deposited data

How the results depend on the processing

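Of 227 members' and named genes' values recomputed under other settings, 216 kept their direction and their side of the threshold and 6 reversed. The causes were not tested. The 6 are the difference of Mest at CT12, reported as -0.02, which was 0.002 with each array centred on its median, 0.26 with array weights and 1.34 without the 4 arrays, and the mean difference of Cdkn1c, at -0.0015, which was 0.017 after quantile normalization, 0.0005 after centring and 0.0001 without the 4 arrays. No setting but the removal of the 4 arrays moved the number of members called from 0 to 1 (Peg3), and 0 were called in any fit with 1 array left out.

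Counts over all genes moved more. For the mean genotype difference 4 genes passed, against 0 with the replicate block, 0 after quantile normalization, 9 of the genes above the median mean, 51 with array weights and 139 without the 4 arrays. Without the 4 arrays 6, 1 and 10 genes passed at CT0, CT6 and CT12, against 0 with them. The 1 gene at CT18 became 0 with the replicate block, quantile normalization, centring, the genes above the median mean, array weights, or without the 4 arrays. For time over both genotypes 176 became 594 with array weights and 75 without the 4 arrays. For time in knockout fat 14 became 23 after quantile normalization or centring, 32 of the genes above the median mean, 30 with array weights and 4 without the 4 arrays. For time in control fat 12 became 82 with array weights and 24 without the 4 arrays. Leaving out the 4 arrays turned the 6 correlated pairs into 2 and the residual SD of Zim1 into 0.48, against 1.15.

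With 1 array left out the counts ran between 0 and 30 for the mean genotype difference, 0 and 3 at CT0, 0 and 5 at CT18, 88 and 291 for time over both genotypes, 4 and 74 in knockout fat, 9 and 25 in control fat, and 0 and 1 for the interaction. The highest counts for the mean difference came without knockout replicate 1 at CT12 (30) and without knockout (18) or control (12) replicate 3 at CT18. Correlated pairs ran between 4 and 8, an alternative chosen after seeing the data. Differences that turned sign with 1 array left out ran between -0.093 and 1.88 for Zim1 and -0.12 and 0.82 for Peg3 at CT18, -0.24 and 0.95, -0.49 and 0.66, and -0.17 and 0.70 for Mest at CT0, CT12 and CT18, and -0.14 and 0.13 for Plagl1 at CT12. They ran between -0.065 and 0.10 for Sgce at CT6, and, as means, -0.011 and 0.037 for Dlk1, -0.030 and 0.070 for Ndn and -0.044 and 0.025 for Cdkn1c.

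The replicate numbers did not pair the arrays at every time. Of 12 pairs of knockout and control arrays with the same number at a time, 5 had a correlation of deviations above 0.1 (range -0.37 to 0.37), and 5 of 12 knockout arrays correlated best with their own number. At CT0 all 3 pairs lay above it (0.19 to 0.37) and each of the 3 knockout arrays correlated best with its own number, while at CT6, CT12 and CT18 1, 0 and 1 of 3 pairs did. With the replicate block the limma adjusted p of Peg3 for the mean difference was 0.686.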

Other observations

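The insulin and IGF pathway, through which Igf2 acts, was measured for all 20 listed genes. For the mean genotype difference 0 of 20 passed by limma, 8 were positive and 12 negative, with a median of -0.03 log2. The smallest p was that of Igfbp4, an IGF-binding protein, at -0.30 ± 0.06 (SE, limma adjusted p = 0.135). Igfbp7 followed at -0.14 ± 0.05 (limma adjusted p = 0.661), and the insulin receptor gene Insr at 0.08 ± 0.04 (limma adjusted p = 0.809). For circadian time over both genotypes 1 of 20 passed, Akt2, a kinase of insulin signalling, with means of 9.92, 10.31, 10.11 and 9.70 log2 at CT0, CT6, CT12 and CT18 (limma adjusted p = 0.028). Of all genes 0.883% passed, and 9 of the 20 had an unadjusted p under 0.05, against 16.1% of all genes. The call of Akt2 held in 20 of 24 fits with 1 array left out (adjusted p 0.0104 to 0.0634), and it was lost without replicate 2 of knockout, replicate 2 of control or replicate 3 of control at CT6, or replicate 1 of control at CT18. Without the 4 arrays its adjusted p was 0.0445. The adipocyte regulator gene Pparg, outside this list, also passed for time, with means of 9.92, 10.48, 10.46 and 10.01 (limma adjusted p = 0.0037), and held in all 24 such fits (adjusted p 0.000485 to 0.0114) and without the 4 arrays (adjusted p = 0.0242).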
